A study of Rattus norvegicus with 6 samples.

Results

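The 10 genes described here belong to the integrated stress response and to its secreted target Fgf21. They were taken by symbol from the 18696 genes for which the authors deposited group averages, and all 10 were found there. RNA was sequenced from the dorsal root ganglia of SD rats, which hold the cell bodies of the sensory neurons that serve the limbs and trunk. For 3 libraries the animals had spared nerve injury (SNI): of the sciatic branches, the tibial and the common peroneal were tied and cut, a short piece of their distal ends was taken out, and the sural was kept. In the 3 sham libraries the sciatic nerve and its branches were exposed and the skin was closed, so both groups had the incision and the exposure. The sources used here give neither the age and sex of the rats, nor the time after surgery, the side and spinal level of the ganglia, or any pooling of animals.

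The integrated stress response starts with kinases that sense unfolded protein in the endoplasmic reticulum, lack of amino acids, missing heme or double-stranded RNA and that phosphorylate the initiation factor eIF2. General translation then slows while the mRNA of the transcription factor ATF4 is translated better, so that the level of Atf4 mRNA need not follow the activity of its protein. ATF4 switches on genes for amino acid synthesis and transport, other transcription factors and its own brakes, and in liver and muscle also the hormone FGF21. A separate branch of the unfolded protein response, run by ATF6 and XBP1, raises the chaperones of the endoplasmic reticulum.

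The tissue label was checked against marker genes. The neuronal markers Tubb3 and Uchl1 averaged 4726 and 6428 TPM in sham against 6108 and 6178 TPM after SNI, where TPM, a share of the library's transcripts corrected for transcript length, is the authors' unit. Injury markers separated the groups: galanin (Gal) was at 17.3, 19.4 and 21.55 TPM in the sham libraries and 500.2, 532 and 566 TPM in the SNI libraries. All 11 injured-neuron markers with averages were higher in SNI by at least 2-fold, against 7.66% of all genes. Other cells moved with the injury: the summed average of 10 macrophage markers was 116 TPM in sham against 261 TPM after SNI, that of 7 erythrocyte markers 569 and 1833 TPM, and that of 8 Schwann cell markers 12704 and 7545 TPM. In such bulk tissue, fewer cells of a type and less RNA per cell cannot be told apart. Depth per library is unknown. Added over all genes, the average read counts came to 18.59 M for sham and 18.59 M for SNI.

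None of the 10 genes is in the table that gives TPM per library, which covers 1637 genes. For them the data are 1 average per group with no error, so their differences have no test here, and "higher" and "lower" below describe 2 averages. To show how many reads stand behind a ratio, the authors' average read counts were multiplied by 3 and an exact (Clopper-Pearson) 95% interval was put on the ratio of the sums. This interval covers counting error only, not the spread between libraries, and it takes the averages as unscaled counts, which the sources used here do not state.

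The 10 genes went in both directions between SNI and sham. Of the 10, 5 had a higher average in SNI and 5 a lower one, against 53.1% of all genes with a higher average. Their median log2 ratio, computed as log2((SNI TPM + 1)/(sham TPM + 1)), which understates the ratios of low genes, was 0.02, beside 0.017 over all genes. The log2 ratio lay within 0.35 of 0 for 6 of the 10, against 80.6% of all genes. At a difference of 2-fold in average TPM, 1 gene was higher (Trib3) and 1 lower (Fgf21), against 7.66% and 3.13% of all genes. The same genes, Trib3 and Fgf21, were the members in the authors' lists of higher and lower genes, which hold 3.63% and 0.695% of the genes with averages. The other 8 were in neither list.

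**Figure D1:**
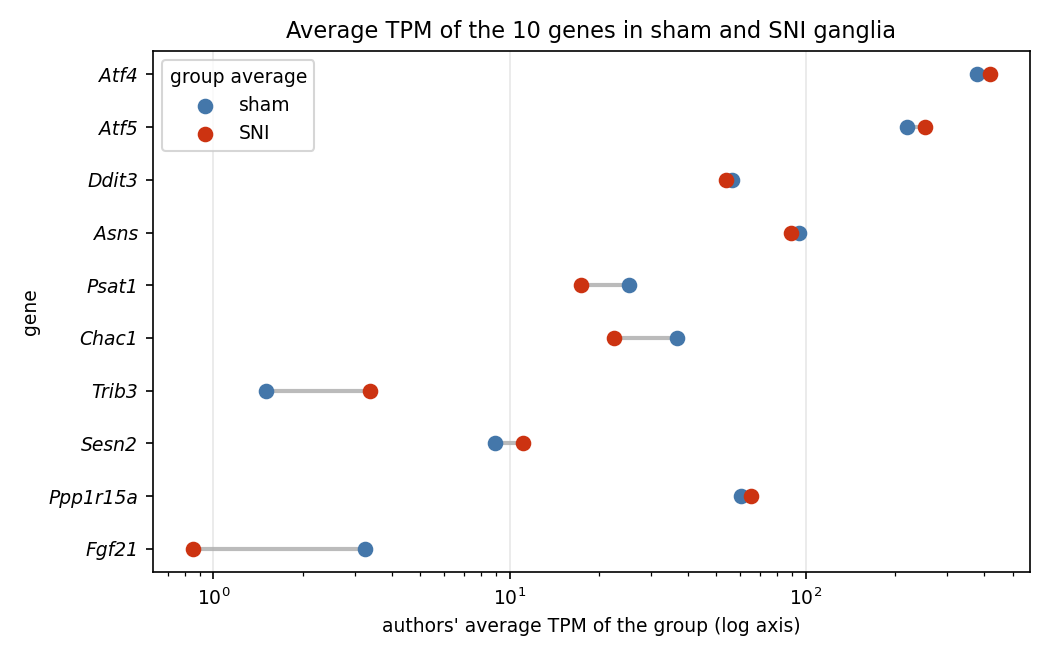
Authors' average TPM of the 10 genes on a log axis, with blue points for the sham group and red points for the SNI group (1 average each, no error available) and a grey line joining them. The points of Atf4, Atf5, Ddit3, Asns and Ppp1r15a nearly coincide, while Fgf21 (3.25 and 0.85 TPM) and Trib3 (1.51 and 3.37 TPM) are the furthest apart and the least abundant.

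The core transcription factors were abundant and close in the 2 groups. Atf4, the factor whose translation the pathway controls, averaged 379 TPM in sham against 419 TPM after SNI, a ratio of 1.11, and its summed reads were 14353 and 16010. Atf5, a related factor that is also controlled at translation and is linked to mitochondrial stress, averaged 220.5 and 252 TPM, a ratio of 1.14. Ddit3, which encodes CHOP, the factor that links lasting stress to cell death, averaged 56.3 and 53.7 TPM, and the counting interval of its read ratio ran from 0.877 to 1.03. For Atf4 and Atf5 the intervals, 1.09 to 1.14 and 1.13 to 1.19, did not include 1, but they say nothing of the spread between animals. The read averages of Atf5, Ddit3 and Asns were not whole when multiplied by 3, those of the other 7 genes were, and how the reads were assigned is not known. In the RefSeq gene table (GRCr8 assembly) Atf5 overlaps Nup62 and Il4i1, Ddit3 overlaps Mars1 and the uncharacterised LOC134479709, and Sesn2 overlaps the long non-coding RNA LOC134487007, so the values of these 3 genes are less certain. Asns overlaps no other gene there.

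By contrast Atf3, a stress factor that ATF4 can induce and that axon injury switches on in sensory neurons, averaged 8.13 TPM in sham against 288 TPM after SNI. It was in the authors' higher list. Its ratio of 35.4 stood beside ratios of 1.11 for Atf4 and 0.953 for Ddit3.

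The 2 enzymes of amino acid synthesis among the 10 were on the lower side. Asns, which makes asparagine and is a classical ATF4 target, averaged 95.0 TPM in sham against 89.4 TPM after SNI, a ratio of 0.941. Psat1, an aminotransferase of serine synthesis, averaged 25.4 and 17.5 TPM, a ratio of 0.689 with a counting interval of 0.640 to 0.754. Chac1, which breaks down glutathione and is a target of ATF4 and CHOP, was lower by more: 36.7 TPM in sham against 22.5 TPM after SNI, a ratio of 0.614 with an interval of 0.571 to 0.672. Of all genes, 1.38% had a lower log2 ratio than Chac1 and 3.17% a lower one than Psat1. Those log2 ratios carry the pseudocount of 1 TPM, which shrinks the ratios of low genes most. By plain average TPM, 3.13% of all genes were at least 2-fold lower, which is further than Chac1 or Psat1. Both lie short of the smallest fold in the authors' lower list, which was 1.90-fold lower, and Chac1 was 1.63-fold lower.

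The brakes and stress sensors had higher averages in SNI. Ppp1r15a (GADD34) brings a phosphatase to eIF2 and so ends the response. Its average was 60.3 TPM in sham against 65.3 TPM after SNI, a ratio of 1.08. Sesn2, a leucine sensor that restrains mTORC1, averaged 8.93 and 11.1 TPM, a ratio of 1.24 with a counting interval of 1.13 to 1.39.

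Trib3, a pseudokinase induced by ATF4 and CHOP that damps both, had the highest ratio of the 10 genes. It averaged 1.51 TPM in sham against 3.37 TPM after SNI, a ratio of 2.24. The authors' average read counts were 19.3 and 43.7, or 58 and 131 reads over the 3 libraries of each group, and the interval of the read ratio was 1.65 to 3.13. In the authors' higher list its fold ranked 572 of the 678 genes with averages, so 15.6% of that list had a smaller one. Among the 3677 genes whose larger average was 10 to 100 reads, 13.2% were at least 2-fold higher in SNI and 8.92% were in the higher list.

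Fgf21, a fibroblast growth factor that circulates as a hormone of fasting and mitochondrial stress, had the lowest ratio. It averaged 3.25 TPM in sham against 0.85 TPM after SNI, which is 3.82-fold lower. These averages rest on 53 reads in sham and 14 in SNI over 3 libraries, and the interval for how far the reads were lower ran from 2.07-fold to 7.39-fold. Of all genes, 0.23% had a lower log2 ratio, computed with the pseudocount of 1 TPM that shrinks the ratios of low genes. In the authors' lower list it ranked 23 of 130 genes by fold, and the list names 6 KEGG pathways for it, MAPK and PI3K-Akt signalling among them. Of the 3677 genes with 10 to 100 reads, 3.62% were at least 2-fold lower and 1.79% were in the lower list.

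**Figure D2:**
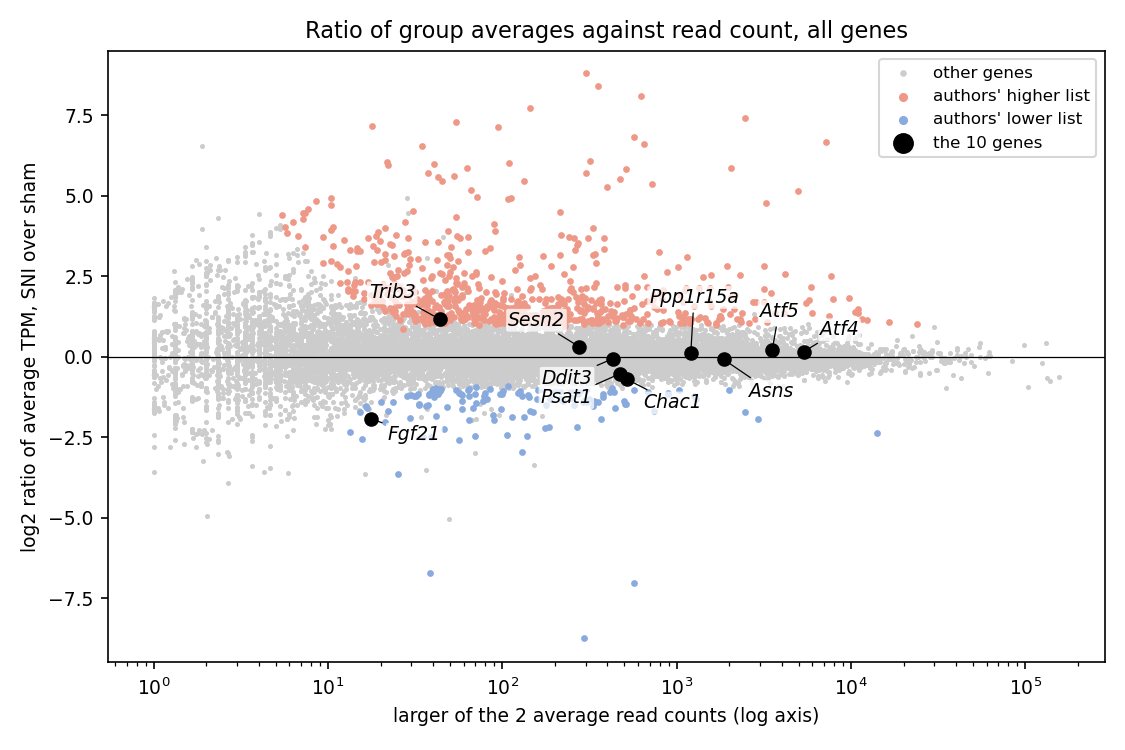
Log2 ratio of average TPM (SNI over sham, no pseudocount) against the larger of the 2 average read counts on a log axis, for each gene with at least 1 read on average. Grey points are genes in neither of the authors' lists, red and blue points those in the higher and lower list, and black points the 10 genes. Trib3 and Fgf21 lie in the sparse region under 100 reads, where the grey points spread widely, and Chac1 and Psat1 lie near the lower edge of the cloud above 100 reads.

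The order of the levels was nearly the same in both groups. From highest to lowest it ran Atf4, Atf5, Asns, Ppp1r15a, Ddit3, Chac1, Psat1, Sesn2, Fgf21 and Trib3 in sham, and in SNI the last 2 changed places. With no values per library, it cannot be said which neighbours in this order differ beyond their spread. Summed over the 10 genes, average TPM was 887 in sham and 935 in SNI, most of it from Atf4 and Atf5.

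FGF21 acts through an FGF receptor, mainly Fgfr1, joined to its co-receptor Klb. Fgfr1 averaged 142 TPM in sham against 135 TPM after SNI, and Klb 0.52 and 0.43 TPM. Ppargc1a, a coactivator of mitochondrial genes, averaged 7.72 and 9.09 TPM. Of the 6 receptor and regulator genes, 2 had a higher average in SNI and 4 a lower one, and none was in either of the authors' lists. Since liver is the main source of circulating FGF21, 5 liver markers were read in the same table, of which 2 had a higher average and 3 a lower one. Alb, Apoa1 and Cyp2e1 averaged under 1 TPM in both groups, at 0.50, 0.383 and 0.247 TPM in sham against 0.24, 0.42 and 0.0233 TPM after SNI. Ttr, which the choroid plexus also makes, fell from 3.43 ± 0.381 TPM to 1.83 ± 0.712 TPM (SD, n = 3 each, log2 fold change −0.67, limma adjusted p = 0.0091). Serpina1, in the authors' higher list, averaged 32.1 TPM in sham against 82.0 TPM after SNI.

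The promoters of the 10 genes were read from the RefSeq promoter table (GRCr8 build, 250 bases before to 50 after the gene start), since ATF4 binds with C/EBP partners to a known element. The motif searched was TGATGNAA on both strands, and 3.98% of the 33469 promoters held it. Of the 10 genes, 3 held it: Fgf21, Chac1 and Trib3. The narrower form TGATGCAA was in 0.795% of all promoters and in those of Fgf21 and Chac1. The stretches of 60 bases before the gene start that hold the match follow, 5′ to 3′ along the gene, for these 3 genes and, for comparison, for Nupr1 and Tars1 (Tars in the deposited files), which hold the narrower form. Capitals mark the match, which in all 5 lies on the opposite strand and so is printed as its reverse complement.
Fgf21, chr1:105221486-105221545, minus strand: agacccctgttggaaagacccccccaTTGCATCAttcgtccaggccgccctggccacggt
Chac1, chr3:126795938-126795997, plus strand: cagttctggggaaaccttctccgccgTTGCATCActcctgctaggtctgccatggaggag
Trib3, chr3:161275534-161275593, minus strand: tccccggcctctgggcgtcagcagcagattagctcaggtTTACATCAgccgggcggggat
Nupr1, chr1:190645923-190645982, minus strand: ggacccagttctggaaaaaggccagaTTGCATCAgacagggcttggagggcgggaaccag
Tars1, chr2:62114803-62114862, minus strand: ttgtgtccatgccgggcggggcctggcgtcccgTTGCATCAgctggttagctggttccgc

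The match began 143 bases before the start in Fgf21, 167 in Chac1, 21 in Trib3, 55 in Nupr1 and 27 in Tars1. Among 95 genes of the stress pathway lists with a promoter in the table, 17 held TGATGCAA. Their averages did not share a direction: 7 were higher in SNI and 10 lower, with log2 ratios from −1.20 (Fgf21) to 0.39 (Tars) and a median of −0.06. The cyclic AMP response element TGACGTCA, in 1.83% of promoters, was present in Ppp1r15a alone among the 10. The AP-1 element TGANTCA, in 7.33%, was in Atf5, Ddit3 and Ppp1r15a. A match is a stretch of letters and not evidence of binding in these ganglia.

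Around the 10 genes, other members of the pathway were read from lists, and 18 of them had TPM per library and could be tested with limma, a linear model fitted over the 1596 genes of the per-library table with a mean of at least 1 TPM. These genes are dense in differences: at a Benjamini-Hochberg adjusted p under 0.05, 32.0% of them were called higher and 29.2% lower in SNI. The p-values were adjusted within these 1596 genes alone, not over the 18696 genes with averages. Fold changes from this fit are differences of log2(TPM + 1).

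Upstream, Eif2ak2 (PKR), the eIF2 kinase that senses double-stranded RNA and responds to interferon, was the member of its list with values per library. It stood at 29.2, 28.5 and 27.4 TPM in the sham libraries and 35.2, 34.0 and 37.5 TPM in the SNI libraries. The groups did not overlap, and it rose by 0.32 on the log2 scale (SE 0.06, limma adjusted p = 0.0012, n = 3 each). Of the 15 genes for the eIF2 kinases, eIF2 subunits and the exchange factor eIF2B, 7 had a higher and 8 a lower average, with a median log2 ratio of −0.02. Eif2ak3 (PERK), the kinase of the endoplasmic reticulum, named here after its value was seen, averaged 18.4 and 26.5 TPM.

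Among the other transcription factors, Nupr1, a stress protein that works with ATF4, fell. Its 3 sham libraries were at 64.2, 68.8 and 64.25 TPM and its 3 SNI libraries at 39.75, 39.8 and 37.5 TPM, all below sham (log2 fold change −0.74, SE 0.05, limma adjusted p = 2.8e-06). Cebpb, a C/EBP partner of ATF4 that also serves inflammation, was at 15.2, 16.4 and 18.7 TPM in sham against 24.7, 21.9 and 21.7 TPM after SNI. It rose by 0.42 on the log2 scale (SE 0.09, limma adjusted p = 0.0023). Of the 7 factors outside the 10 genes, 4 had a higher average and 3 a lower one.

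Of the 9 other ATF4 and CHOP targets, 3 were tested and went different ways. Eif4ebp1, the repressor of cap-dependent translation, rose from 20.7, 20.2 and 21.4 TPM to 38.8, 37.2 and 32.8 TPM (an increase of 0.77 on the log2 scale, SE 0.07, limma adjusted p = 1.2e-05). Vegfa, the vascular growth factor, fell from 61.85, 57.7 and 56.4 TPM to 45.4, 43.8 and 48.5 TPM (log2 fold change −0.35, limma adjusted p = 0.00076). Ddit4, an mTORC1 inhibitor, did not pass (log2 fold change −0.08, limma adjusted p = 0.244) and its groups overlapped. Averages were higher for 5 of the 9 and lower for 4, with a median log2 ratio of 0.01, and none was in the authors' lists.

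Phgdh, the enzyme of serine synthesis ahead of Psat1, fell. It was at 156, 168 and 163 TPM in sham against 118, 122 and 124 TPM after SNI, with no overlap. It fell by 0.42 on the log2 scale (SE 0.05, limma adjusted p = 5.4e-05). Psph, the last enzyme of that route, averaged 24.3 and 21.8 TPM, and neither it nor Psat1 has a test here. The list of amino acid and one-carbon synthesis was mixed: outside Asns and Psat1, 5 averages were higher and 6 lower. Named after their values were seen, the proline enzyme Pycr1 averaged 8.36 TPM in sham against 4.28 TPM after SNI, and Aldh1l2, a mitochondrial folate enzyme in the authors' higher list, 1.22 and 5.75 TPM. Schwann cell markers moved with Phgdh: 6 of 8 had lower averages, against 8583 of all 18696 genes, and none was at 0. Sensory neuron markers did so too: 8 of 10 had lower averages, none was at 0, and their summed average was 21446 TPM in sham against 20807 TPM after SNI. The 3 of them with values per library, Snap25, Scn10a and Scn11a, fell by 0.43, 0.37 and 0.40 on the log2 scale (limma adjusted p = 1.2e-05, 0.00053 and 9.6e-05). Satellite glia markers went the other way, with 5 of 6 averages higher, as did injured-neuron (11 of 11), macrophage (10 of 10) and erythrocyte markers (7 of 7). Averages were lower for 4 of 8 endothelial and mural cell markers and 3 of 5 fibroblast markers. The part of any of these lists in the lower values of Phgdh, Psat1 and Chac1 was not tested.

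Genes for the transport and charging of amino acids mostly had averages close in both groups. Of 9 transporters, 7 had a higher average in SNI, and Slc1a5, a glutamine carrier, was in the authors' higher list at 2.33 TPM in sham against 5.23 TPM after SNI. Of 13 genes of the tRNA synthetase list, 6 were higher and 7 lower, with a median log2 ratio of −0.01 and extremes of −0.21 and 0.39. Iars, which charges isoleucine, was the 1 gene tested and fell from 78.0, 71.75 and 72.4 TPM to 61.9, 65.5 and 63.5 TPM (a difference of −0.21 on the log2 scale, SE 0.05, limma adjusted p = 0.0062).

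**Figure D3:**
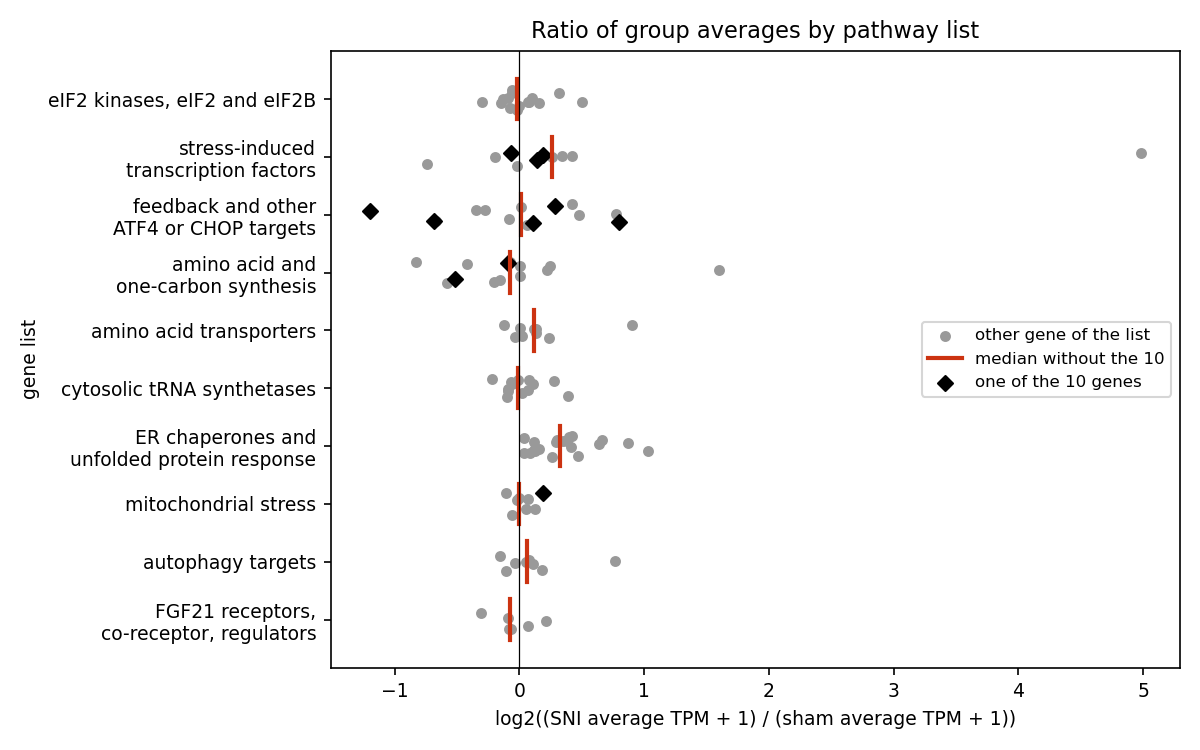
Log2 ratio of group averages (SNI over sham, pseudocount of 1 TPM) for each gene of the 10 pathway lists, spread vertically within a list for legibility. Grey points are genes outside the 10, black diamonds the 10 genes, and red bars the median of the grey points. The chaperone list lies wholly to the right of 0 (median 0.33), most other medians lie near 0, and the far point at 4.99 is Atf3.

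The chaperones of the endoplasmic reticulum differed from this mixed picture. All 20 genes of that list had a higher average in SNI, against 53.1% of all genes. Their median log2 ratio was 0.33 beside 0.017 over all genes, and the lowest value was 0.04. Of 9 tested with limma, 6 rose (Hspa5, Calr, Manf, Creld2, Hyou1 and Dnajb9), none fell and 3 did not pass (Canx, Sel1l and Herpud1). Among all 1596 genes tested, 32.0% were called higher and 29.2% lower. With quantile normalization the log2 fold changes of Canx and Herpud1 went from 0.085 and 0.042 to −0.004 and −0.013. Hspa5 (BiP), the master chaperone that also holds the stress sensors inactive, was at 226, 214 and 203 TPM in sham against 333, 331 and 340 TPM after SNI. It rose by 0.64 on the log2 scale (SE 0.05, limma adjusted p = 3.8e-06).

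Manf, a secreted factor of the stressed endoplasmic reticulum, was at 104, 107 and 104 TPM in sham against 163, 175 and 161 TPM after SNI (a difference of 0.66 on the log2 scale, SE 0.05, limma adjusted p = 3.2e-06). Creld2, another secreted target of this branch, was at 12.6, 13.3 and 11.6 TPM in sham against 28.4, 24.98 and 26.5 TPM after SNI. It rose by 1.04 (SE 0.07, limma adjusted p = 2.5e-06) and was the 1 gene of the list among the authors' higher genes. The call of Dnajb9 (log2 fold change 0.27, limma adjusted p = 0.018) was lost when sham replicate 3, or replicate 2 or 3 of SNI, was left out, at limma adjusted p of 0.0543, 0.0657 and 0.0520.

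Xbp1, the factor behind many of these genes, averaged 112 TPM in sham against 148 TPM after SNI, with no test. Macrophage markers moved with the chaperones, 10 of 10 with a higher average, against 53.1% of all genes, and none at 0. Of the 3 tested, Msr1 rose (limma adjusted p = 2.3e-06). Mrc1 and Cd163 did not pass (limma adjusted p = 0.073 and 0.73). Handling and immediate early genes, which tissue removal can induce, also moved with the chaperones. Of the 8, 7 were higher, against 53.1% of all genes, and their summed average was 139 TPM in sham against 219 TPM after SNI. The exception, Nr4a1, named after its value was seen, averaged 45.5 and 45.0 TPM. Other lists did so too: averages were higher for 11 of 11 injured-neuron, 7 of 7 erythrocyte and 5 of 6 satellite glia markers. Endothelial and mural cell markers were split, with 4 of 8 higher. Fewer were higher among fibroblast (2 of 5), Schwann cell (2 of 8) and sensory neuron markers (2 of 10). The part of any of these lists in the chaperone values was not tested.

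**Figure D4:**
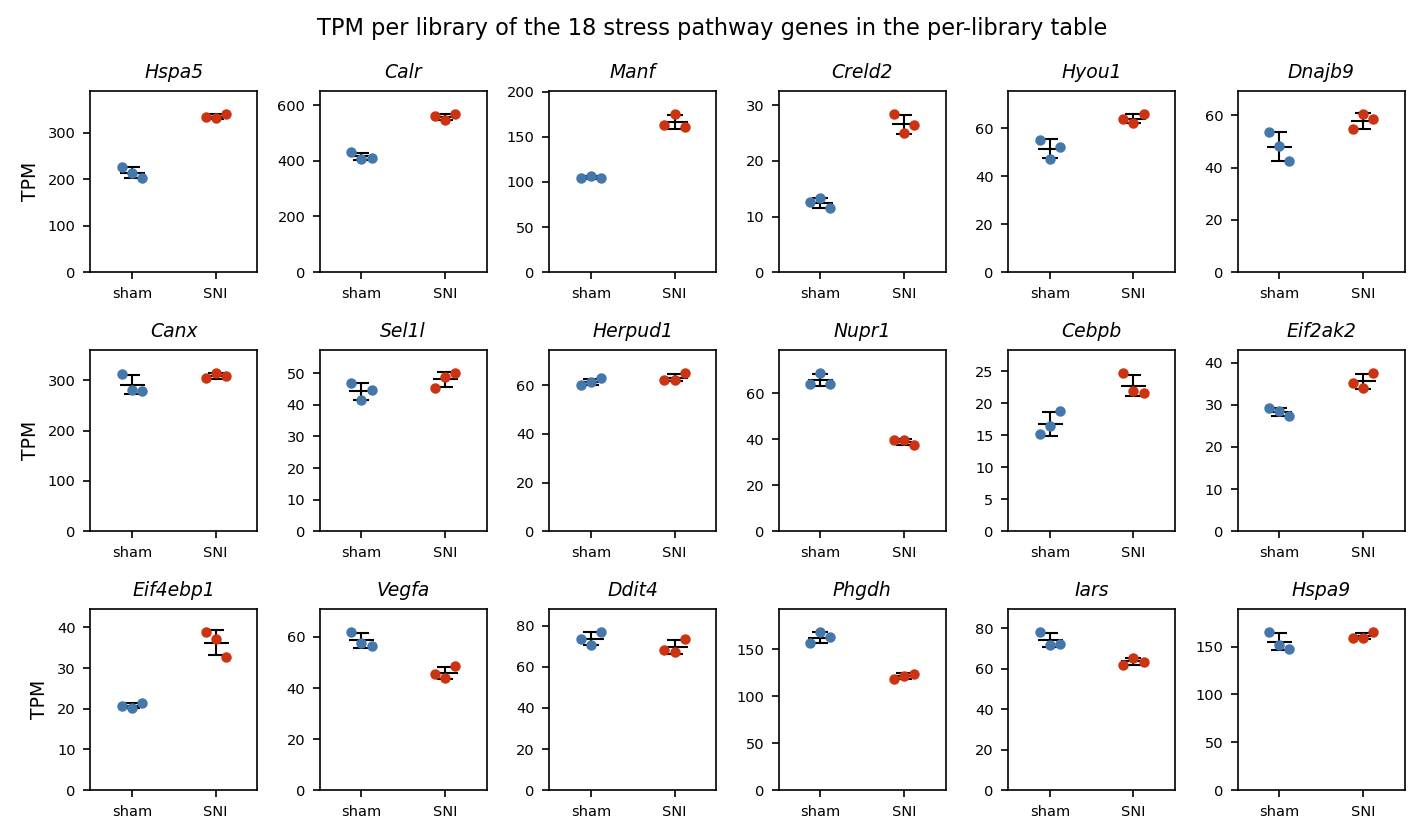
TPM in each library for the 18 stress pathway genes with values per library. Blue points are the 3 sham and red points the 3 SNI libraries, black bars give the mean ± SD, and each panel has its own linear axis from 0. The groups lie apart for Hspa5, Calr, Manf, Creld2, Hyou1, Dnajb9, Cebpb, Eif2ak2 and Eif4ebp1 (higher in SNI). They also lie apart for Nupr1, Vegfa, Phgdh and Iars (lower), and they overlap for Canx, Sel1l, Herpud1, Ddit4 and Hspa9. How often the groups lie apart among all 1637 genes with TPM per library was not computed. Of the 1596 tested with limma, 32.0% were called higher and 29.2% lower.

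The chaperone promoters were read in the same way for the endoplasmic reticulum stress element, the site of ATF6 with NF-Y, searched on both strands as CCAAT, 9 bases of any kind and CCACG. It was in 0.0657% of all promoters, 22 of 33469. Of the 15 chaperone list genes with a promoter in the table, 7 held it: Calr, Canx, Creld2, Dnajc3, Hsp90b1, Hspa5 and Xbp1. All 7 had a higher average, which follows from their list, where all 20 genes did. Their median log2 ratio was 0.41, beside 0.33 over the 20 genes, which include these 7. Only 15 of the 20 have a promoter here, and a link between the element and the ratios was not tested. Of the 4 holders tested with limma, Canx did not pass. Of the 10 integrated stress response genes, 0 held it in this window. The 60 bases around the match, in capitals, follow for the 3 others, which rose, with the match on the opposite strand in Creld2 and Calr.
Hspa5, chr3:38452953-38453012, plus strand: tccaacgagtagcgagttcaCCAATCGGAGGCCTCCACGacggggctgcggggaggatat
Creld2, chr7:121789219-121789278, plus strand: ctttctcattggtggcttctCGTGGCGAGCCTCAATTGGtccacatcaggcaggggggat
Calr, chr19:40213117-40213176, plus strand: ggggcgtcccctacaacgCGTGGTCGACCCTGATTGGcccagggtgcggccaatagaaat

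Genes of mitochondrial stress and autophagy, programmes linked to ATF5 and ATF4, mostly had averages close in both groups. Of 7 mitochondrial genes other than Atf5, 3 averages were higher and 4 lower, and Hspd1, the mitochondrial chaperonin, averaged 166 and 165 TPM. Hspa9, the chaperone tested, did not pass (log2 fold change 0.06, limma adjusted p = 0.362). Of 8 autophagy genes, 5 were higher, and Map1lc3b and Gabarapl1, which encode proteins of the autophagosome membrane, averaged 965 and 1039 TPM in sham against 1097 and 934 TPM after SNI. Log2 ratios of the 8 ran from −0.15 to 0.76. The highest was that of Atg12, named after its value was seen, at 58.4 TPM in sham against 99.9 TPM after SNI.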

How the data were processed

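RNA sequencing of 6 dorsal root ganglion libraries, 3 SNI and 3 sham, was analysed from deposited tables. The authors deposited 3 kinds of table: per the file headers, these give TPM in each library (1637 genes), average TPM and average read count in each group (18696 genes), and their own higher (699) and lower (136) genes. The read counts are estimated counts averaged by the authors, and the sources used here do not state their scaling. Multiplied by 3, 65.4% of the sham and 64.8% of the SNI averages came out whole (tolerance 0.005). Not given in the sources used here: the aligner, counter, build, strand setting and the test behind the authors' lists. Per the labels' protocols, extraction is named as Trizol and as mirVana and library preparation as TruSeq and as NEBNext, so both are uncertain. The columns named control were taken as sham, the other group in the labels.

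The 1596 genes whose mean reached 1 TPM were compared as log2(TPM + 1) in limma 3.58.1 under R 4.3.3, using a trended prior and group as the only term, and the script was tested on simulated data. The deposited averages were compared as log2 ratios with a pseudocount of 1 TPM and no test. With 3 libraries against 3, a permutation test cannot give a two-sided p under 0.1. Nothing in the labels ties each library to an animal of its own, and the p-values may reflect technical spread alone.

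The 10 genes and the 21 gene lists (200 entries, all matched to a gene ID, 13 by an older symbol and 1 by RefSeq gene ID) were chosen with earlier results of these data known. Besides the 10 genes, the rule named up to 3 called genes of each list by fold change, else up to 3 in the authors' lists, else the 2 most abundant. Some genes beyond it are named after their values were seen, among them Atf3, Klb, Psph, Xbp1, Dnajb9, Calr, Hyou1, Canx, Sel1l, Herpud1, Ddit4 and the liver markers other than Ttr, as were the motifs and the promoters shown. A planned search for genes with a like pattern needed values per library, so none is given. Promoter sequences are from RefSeq (GRCr8), and the build of the deposited files is not known, so no coordinates of the measured features are given. Intervals used scipy 1.17.1, tables pandas 2.3.3 and numpy 2.4.6 in Python 3.11.15, and figures matplotlib 3.10.9.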

Additional observations from a re-analysis of the deposited data

How the results depend on the processing

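The test planned for the 10 genes in the per-library table was not run, because that table holds 0 of them. Their count with a higher average stayed at 5 of 10 with a pseudocount of 0.1 TPM, with average read counts and after centring on the median gene, and none of the 30 recomputed ratios changed sign. In the comparison per library, 510 genes were called higher and 466 lower. The split was 402 and 608 after quantile normalization and 451 and 541 with libraries centred on their median, so the share of higher calls went from 52.3% to 39.8% and 45.5%. Leaving out each library in turn gave 445 to 524 higher and 387 to 477 lower calls. Of the 18 pathway genes tested, 15 had the same call in all 13 alternatives. Besides Dnajb9, Canx passed without sham replicate 1 (limma adjusted p = 0.019) and Ddit4 with centred libraries (limma adjusted p = 0.046). With a replicate block the counts were 498 and 447. Same-numbered libraries share only a number: their deviations correlated at −0.09, −0.06 and 0.19, and sham 1 correlated best with SNI 2. Depth limits Fgf21 (53 and 14 reads) and Trib3 (58 and 131 reads) most.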
